A study of Rattus norvegicus with 6 samples.

Results

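The solute carriers examined here were all probe sets of the deposited table whose array annotation gives exactly 1 gene symbol beginning with Slc and a number: 181 of the 8799 probe sets, for 120 genes. They were followed in rat ovaries at birth (P0), on postnatal day 4 (P4), and in ovaries that were removed at birth and kept for 7 days in culture. All 3 groups were whole ovaries of female pups, with no strain, genotype or allele given. The cultured ovaries lay on floating filters in serum-free medium that held albumin, a lipid-rich albumin, transferrin, insulin, ascorbic acid and antibiotics. Each group had 2 short-oligonucleotide arrays, and each array held total RNA pooled from about 20 ovaries. The series design also mentions progesterone, which no sample label gives, so both cultured arrays were taken as labelled, as replicates of 1 condition. Values are intensities on a linear scale, scaled per array by the authors.

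Solute carriers are membrane proteins that move small molecules by facilitated diffusion, by exchange, or by coupling to the sodium, proton or chloride gradient. Each numbered family shares ancestry and, as a rule, a class of substrate. In the ovary they are known mainly for how follicles are fed: granulosa cells take up glucose and pass pyruvate, lactate and some amino acids to the oocyte, which uses glucose poorly itself. Several other families are best known from kidney, liver or brain. By family number, and a few single genes, the members were put into 9 substrate groups.

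The ovarian identity of the samples was clear on 10 marker genes, all measured and all above the control level described next in at least 1 group. Their summed intensity was 2537.2 and 2617.1 on the P0 arrays, 7048.4 and 6263.4 on the P4 arrays, and 3948.7 and 3936.8 on the cultured arrays. Of the 9 tested, 4 were called higher and none lower at P4 than at P0. In culture 3 were called higher and 1, Fst, lower than at P0. Against P4, 2 were called lower in culture, Inha and Amh, and none higher. The 3 of 8 listed erythroid markers measured summed to 2145.7 to 4009.1 on the P0 and P4 arrays and to 124.5 and 103.0 after culture, with 2 called lower than at P0. Nearly all of the P0 and P4 sums was the globin Hbb. Macrophage and leukocyte markers, 7 of 9, summed to 542.1 and 662.3 at P0, 347.6 and 426.5 at P4, and 3561.2 and 1840.0 after culture. There 4 were called higher than at P0 and than at P4. Lyz2 alone made up most of the cultured sums, at 2267.0 and 955.7, against 110.8 and 141.3 at P0. C1qc and Ptprc hardly changed from P0 to culture on their brightest probe sets (log2 changes 0.04 and 0.06). The 4 of 5 adipocyte markers summed to 662.4 to 793.9 on the P0 and P4 arrays, and to 1278.1 and 1532.3 after culture. Of these, the adipocyte fatty acid binding protein Fabp4 was at least 31.7-fold and adipsin, Cfd, at least 11.1-fold higher in culture than at P0 (limma adjusted p = 0.000248 and 0.000826), while Plin1, the lipid droplet coat protein, was at or under the control level in all 3 groups. Leptin, Lep, made up most of the adipocyte sums at P0 and P4 and went the other way. Its brightest probe set read 760.2 and 653.3 at P0, 632.1 and 707.9 at P4, and 531.5 and 506.4 after culture, with no call. The part of these cell types in the transporter values was not tested. In whole-tissue RNA, fewer cells of a type and less RNA per cell cannot be told apart.

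P0 replicate 1 stood apart on 7 probe sets for bacterial transcripts added at hybridization, several of them for the same transcript. Their intensities summed to 4620.3 there and to 1993.9 to 3061.6 on the other 5 arrays. Each transporter call below is followed by the arrays whose removal ended it.

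Probe sets without a detection call were read against control probe sets for which no transcript was spiked: 23 bacterial, yeast and mouse sequences, whose highest value on any array was 20. At P0, 120 of the 181 solute carrier probe sets had a group mean above that level, a share of 66.3%. At P4 the share was 61.3% (111 probe sets) and after culture 61.9% (112). Among all 8740 probe sets that are no controls the shares were 65.6%, 63.4% and 64.4%. The shares on single arrays ran from 57.5% to 65.7%, and the 2 cultured arrays alone, at 57.5% and 65.2%, differed by more than the groups did. Altogether 126 members exceeded the level in at least 1 group and 103 in all 3, and 55 in none. By gene, 93 of 120 had at least 1 probe set above it in some group.

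The substrate groups differed widely in this share. All 16 probe sets of the mitochondrial carrier family, most members of which pass nucleotides, phosphate and metabolites through the inner mitochondrial membrane (Slc25a17 is peroxisomal), were above the level in every group. Among carriers of nucleosides, vitamins and lipids it was 12 of 13 in every group. Carriers of organic ions and bile acids, families known from kidney and liver, stood at the other end with 7, 5 and 6 of 20 at P0, P4 and after culture. Amino acid and peptide carriers had 14, 12 and 12 of 26, sugar carriers 12, 14 and 14 of 20, monocarboxylate carriers 4, 5 and 4 of 7, and ion carriers 36, 31 and 31 of 50. The carriers of neurotransmitters, other amines and osmolytes, most of them of family 6, had 17, 14 and 15 of 25. A small remainder, the urea transporters Slc14a1 and Slc14a2, had 2 of 4 in each group. These counts describe probe sets, which differ in affinity, so they rank no gene against another.

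**Figure D1:**
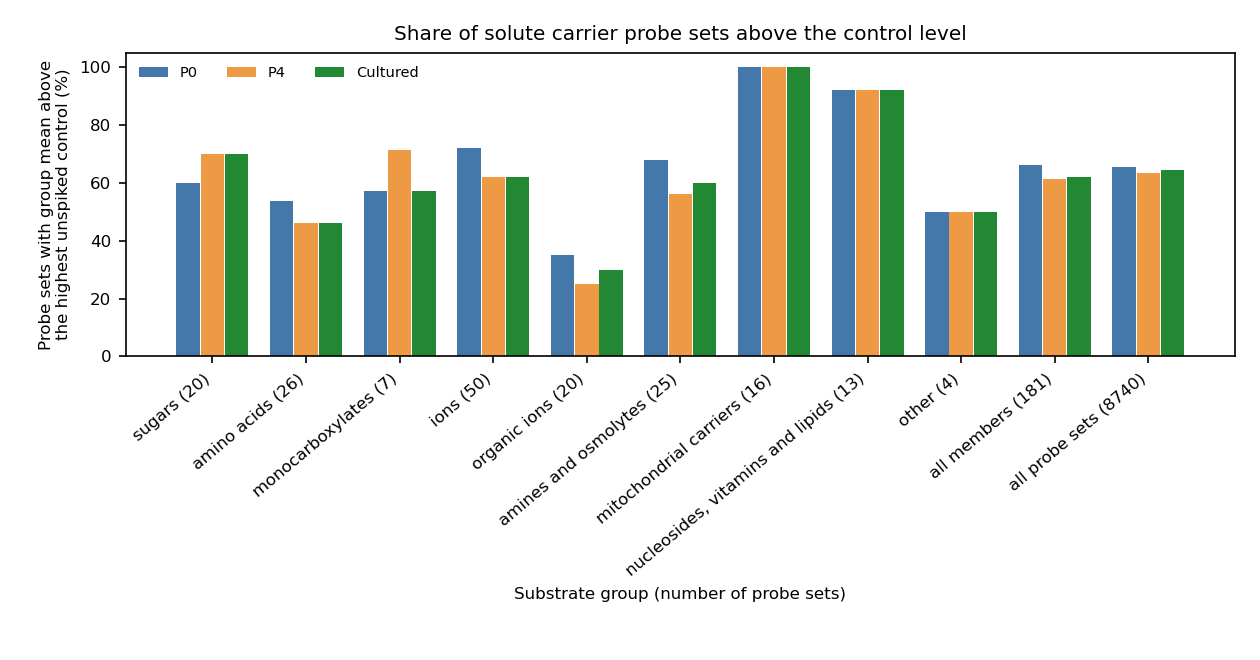
Bars give the percentage of probe sets (y axis) in each substrate group (x axis, number of probe sets in brackets) whose mean over the 2 arrays of P0, P4 or cultured ovaries lay above 20, the highest unspiked control. Mitochondrial carriers reach the top of the scale in all 3 groups, organic ion carriers 5 to 7 of 20, and all members 61.3% to 66.3%.

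The 27 genes with no probe set above the level included the liver and gut glucose transporter Slc2a2, which read 0.5 to 2.0 on the 6 arrays, the renal glucose cotransporter Slc5a2 (4.5 to 20.6), the liver bile acid carrier Slc10a1 (1.7 to 15.7) and the vesicular glutamate transporter Slc17a7 (1.9 to 6.1). These 4 were chosen after their values were seen, as tissue-restricted examples. The sodium-chloride-potassium cotransporter of the kidney, Slc12a1, read 1.3 to 15.6. Near the cut-off at P0, the organic cation transporter Slc22a2 (20.8) and the sodium-calcium exchanger Slc8a3 (21.0) had means just above it, and the cationic amino acid transporter Slc7a2 (19.6) and the zinc exporter Slc30a1 (19.8) just below. None of the 4 lay clear of it on every array.

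For the comparisons between groups, 127 of the 181 members, for 93 genes, passed a filter on dim probe sets and were tested together with all others, 6118 in total. A probe set was called where the limma p, adjusted by Benjamini-Hochberg over the 6118, was under 0.05. Changes are differences of log2(intensity + 7.7), which understate the change of dim probe sets. Few transporters were called. Between P4 and P0 it was 1 of 127, lower at P4, against 1.08% of all tested probe sets. Between cultured and P0 ovaries it was 3 (2 higher and 1 lower in culture), which is 2.36% against 5.43%, and between cultured and P4 ovaries 1, higher in culture, or 0.787% against 2.78%. At an unadjusted limma p under 0.05 the counts of members were 13, 19 and 9. The share of all tested probe sets at that threshold was not computed, so these 3 counts cannot be set against a background. Group values did not overlap for 40.2%, 51.2% and 37.8% of the tested members, against 44.2%, 50.4% and 43.6% of all tested probe sets. The medians of the log2 changes were -0.03, -0.11 and -0.07, against -0.05, -0.08 and -0.04 over all. In the shares called, the shares not overlapping and the medians, the transporters lay near or below the background. Each cultured array had its own chip ID batch, and cultured ovaries were 7 days past birth. In the comparisons with cultured ovaries, the effects of culture, batch and elapsed age cannot be told apart.

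**Figure D2:**
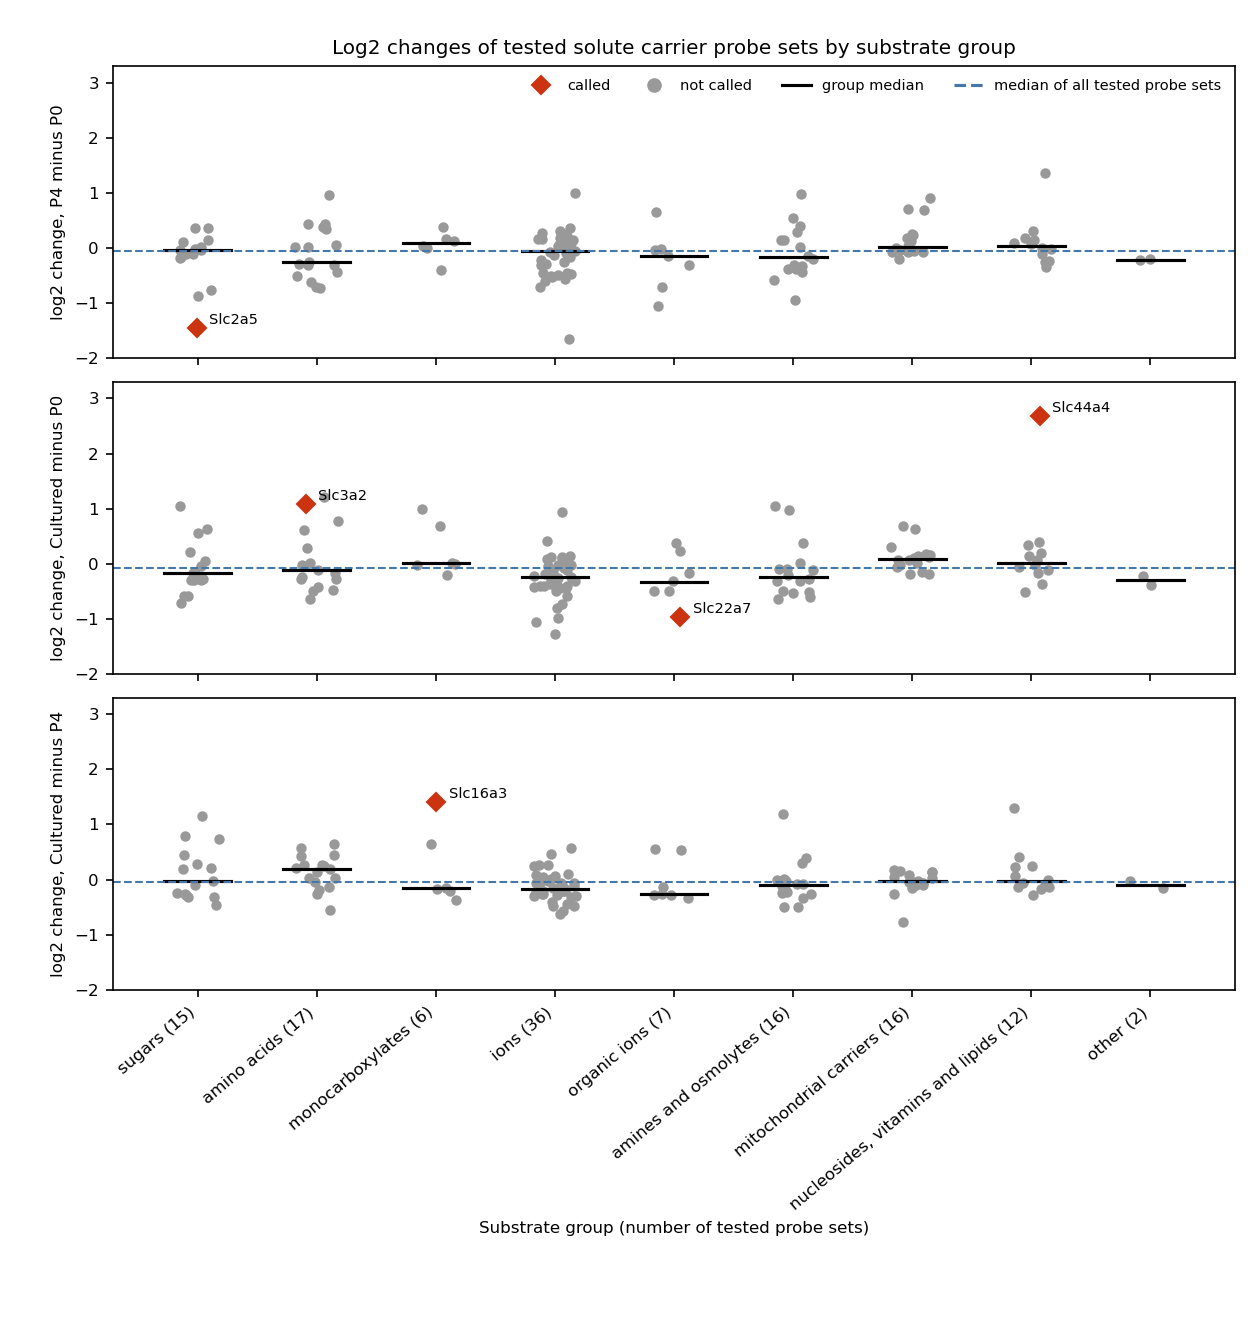
Each point is the log2 change (y axis) of 1 tested solute carrier probe set in 1 substrate group (x axis, number tested in brackets), for P4 minus P0, cultured minus P0 and cultured minus P4 from top to bottom. Black bars are group medians, the dashed line is the median of all 6118 tested probe sets, and the named diamonds are the 5 called changes, from -1.45 for Slc2a5 to 2.67 for Slc44a4.

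Sugar carriers held the transporter called between P4 and P0. Slc2a5, the facilitative fructose transporter GLUT5, read 197.2 and 179.8 at P0, 60.1 and 68.5 at P4, and 119.1 and 105.5 after culture on one of its probe sets. Both P4 arrays lay far below both P0 arrays, and the cultured arrays lay between. Slc2a5 fell 2.93-fold from P0 to P4 (log2 change -1.45, SE 0.21, limma adjusted p = 0.0185). The change was -1.60 in chip ID batch A and -1.30 in batch B, the pairs of P0 and P4 arrays that share a chip batch. Its other probe set read 131.2 and 237.0, 95.9 and 107.9, and 143.0 and 141.0, again with both P4 arrays lowest, at a log2 change of -0.75 that was not called (adjusted p = 0.269). In culture the first probe set had a log2 change of -0.71 against P0 (adjusted p = 0.0948). Leaving out any 1 array except P4 replicate 2 ended the call (adjusted p = 0.0539 to 0.12).

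Slc2a1, the basal glucose transporter GLUT1, was highest after culture but was not called. Its first probe set read 239.4 and 261.5 at P0, 243.4 and 221.3 at P4, and 359.5 and 763.9 after culture. Both cultured arrays were above all 4 others, but they differed from each other by more than the P0 and P4 arrays together did. The log2 change was 1.15 against P4 (SE 0.31, adjusted p = 0.102) and 1.05 against P0 (adjusted p = 0.0933). The change against P4 depended on which cultured array was used: it was 1.69 without cultured replicate 1, the lower of them, and 0.615 without cultured replicate 2. The second Slc2a1 probe set, with 75.2 and 82.9, 80.4 and 60.8, and 115.1 and 140.3, gave the same order of groups at log2 changes of 0.80 against P4 and 0.64 against P0.

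Slc5a1, the sodium-glucose cotransporter SGLT1, read 169.3 and 149.8 at P0, 80.5 and 87.6 at P4, and 83.3 and 127.5 after culture. All P4 and cultured values were below both P0 values, with a log2 change of -0.86 at P4 (adjusted p = 0.154), called only with the chip batch as a block. A second probe set of the gene read 34.1 to 38.1 at P0 and P4, with a change of -0.03. The neuronal glucose transporter Slc2a3 read 48.4 to 64.5 on its brighter probe set over all 6 arrays. The insulin-responsive Slc2a4 lay at or near the control level, between 7.7 and 29.0 on its pair of probe sets. Slc35b1, of the nucleotide sugar family, read 322.7 to 435.1 on its brighter probe set. Over the 15 tested sugar carrier probe sets, 1 was lower at P4 and none was called with culture, and the median changes were -0.04, -0.17 and -0.02 in the order P4 against P0, cultured against P0, and cultured against P4.

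Among monocarboxylate carriers, which move lactate, pyruvate and ketone bodies with protons, Slc16a3 was higher in culture. Slc16a3, the lactate-exporting MCT4 of glycolytic cells, read 45.0 and 42.7 at P0, 24.9 and 38.8 at P4, and 83.3 and 108.8 after culture. The cultured arrays lay above all 4 others, and both P4 values lay below both P0 values. Slc16a3 was 3.06-fold higher in cultured than in P4 ovaries (log2 change 1.40, SE 0.26, limma adjusted p = 0.0222), and against P0 the log2 change was 1.00 (adjusted p = 0.0653). The macrophage and leukocyte sums above were also highest in culture, and their part in the Slc16a3, Slc2a1 and other values raised there was not tested. The Slc16a3 call ended without P4 replicate 1 (adjusted p = 0.152), cultured replicate 1 (0.0788) or cultured replicate 2 (0.164), and with no filter on dim probe sets (0.0613).

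Slc16a1, the widely expressed MCT1, showed nothing of the kind: its brighter probe set read 258.2 and 301.3 at P0, 295.1 and 331.3 at P4, and 271.0 and 289.1 after culture. From P0, log2 changes of that probe set were 0.16 at P4 and 0.00 in culture, with the other probe set between -0.16 and 0.13 in all comparisons. Slc16a7, the high-affinity pyruvate carrier MCT2, read 27.2 and 17.5, 33.0 and 15.3, and 34.1 and 46.8, a log2 change of 0.69 in culture against P0 (adjusted p = 0.313). Slc16a8, known from the retinal pigment epithelium, read 11.9 to 24.9, around the control level. The tested monocarboxylate probe sets thus numbered 1 called of 6 against P4, and none against P0 or between P4 and P0.

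**Figure D3:**
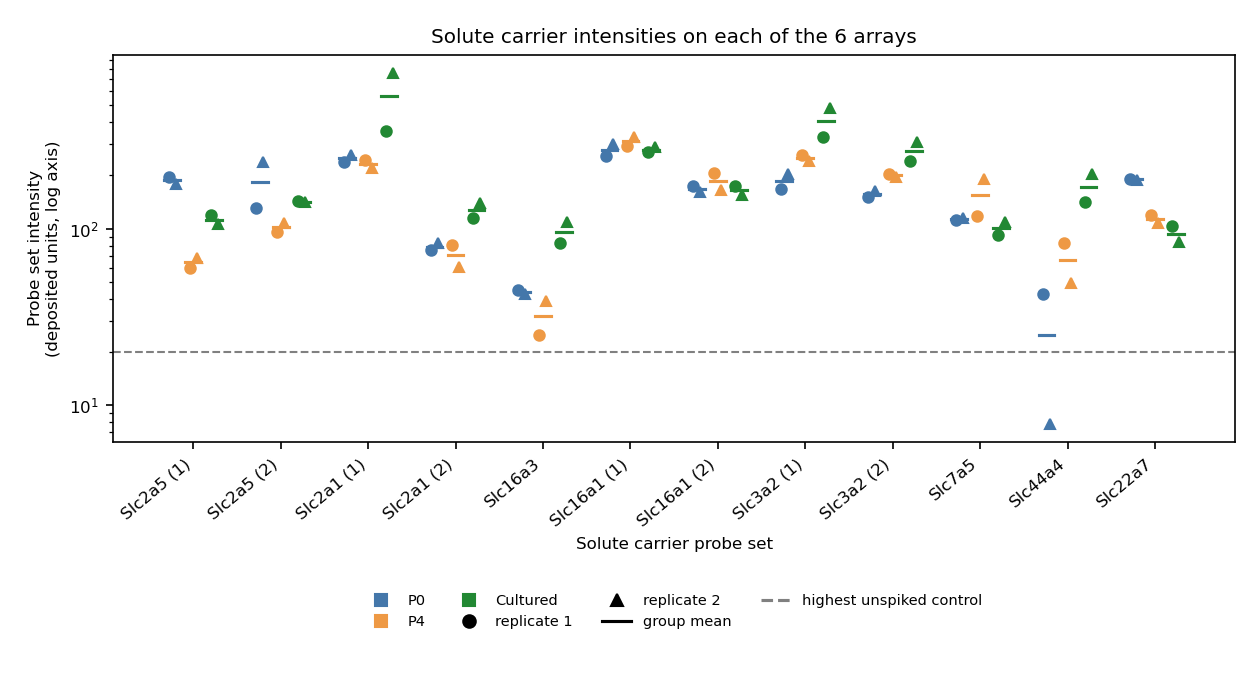
Each symbol is the intensity (y axis, log scale, units as deposited) of a solute carrier probe set (x axis, numbered where a gene has several) on 1 array, with short bars at the group means (n = 2) and a dashed line at 20, the highest unspiked control. Slc2a5 is lowest at P4, Slc16a3, Slc3a2 and Slc44a4 are highest after culture, and Slc16a1 lies at like levels in all 3 groups.

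Partner genes of these transporters were read from a fixed list of 65 genes, of which 46 were measured and 35 tested on their brightest probe set. None was called between P4 and P0. In cultured ovaries 2 were higher than at P0 and 1 was higher than at P4, and none was lower. That is 5.71% and 2.86% of the 35, against 5.43% and 2.78% of all tested probe sets. Emb, embigin, one of the partners that bring monocarboxylate carriers to the cell surface, read 139.8 and 142.6 at P0, 245.9 and 256.8 at P4, and 355.1 and 426.2 after culture. The 3 groups did not overlap, in the order P0, P4, cultured. Emb rose by 1.41 on the log2 scale in culture against P0 (SE 0.20, limma adjusted p = 0.00469, or 0.0622 without cultured replicate 2). Its other probe set was called at a log2 change of 1.20 (adjusted p = 0.014), but not without P0 replicate 2 (0.0787), cultured replicate 1 (0.076) or cultured replicate 2 (0.112). For the first, P4 exceeded P0 by 0.80 log2 units (adjusted p = 0.107; 0.031 once the chip batch was a block).

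The more general partner Bsg, basigin, read 1509.2 and 1946.8 at P0, 1160.4 and 1284.2 at P4, and 1135.5 and 1133.0 after culture, a log2 change of -0.59 in culture (adjusted p = 0.0893). Fxyd2, the small regulatory subunit of the sodium-potassium pump that maintains the sodium gradient, read 20.7 and 23.7 at P0, 3.9 and 3.9 at P4, and 101.6 and 52.3 after culture. Fxyd2 was at least 3.64-fold higher in cultured than in P4 ovaries, with P4 arrays set to the control level (limma adjusted p = 0.00212). Against P0 its log2 change was 1.44 (adjusted p = 0.0406). That second call ended without either P0 array or cultured replicate 1 (highest adjusted p = 0.205), with quantile normalization (0.0502), with a pseudocount of 1 (0.0695) and with no filter (0.0736). The pump subunit Atp1b3 read 828.8 to 1241.8 over the 6 arrays, with no call. Tap1, a subunit of the ATP-driven peptide transporter of antigen presentation, was called in culture against P0 on a dimmer probe set only (5.7 and 17.8 against 59.4 and 54.5, log2 change 1.81, adjusted p = 0.0159). That call ended without P0 replicate 1 (0.0644) or either cultured array (0.106 and 0.104), and the brightest Tap1 probe set had a log2 change of 0.07. Hexokinase Hk1, which traps glucose after entry, was not called on either tested probe set.

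Amino acid carriers contributed Slc3a2. This gene encodes the heavy chain 4F2hc, or CD98, which brings several light chains of family 7, Slc7a5 among them, to the plasma membrane. On the first of its probe sets Slc3a2 read 166.9 and 203.4 at P0, 262.0 and 243.0 at P4, and 330.4 and 485.2 after culture, and the 3 groups did not overlap. Slc3a2 rose 2.17-fold in culture against P0 (log2 change 1.09, SE 0.24, limma adjusted p = 0.03). The second probe set gave the same order, 150.6 and 163.0, 204.4 and 196.1, and 240.8 and 310.6, at a log2 change of 0.77 (adjusted p = 0.0747). At P4 the changes were 0.44 and 0.34 (adjusted p = 0.487 for the first). The call ended without any of the P0 or cultured arrays (adjusted p = 0.0537 to 0.201) and with quantile normalization (0.0555).

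The light chain Slc7a5, the large neutral amino acid transporter LAT1, did not share this order: it read 111.5 and 115.4 at P0, 117.6 and 191.6 at P4, and 92.4 and 108.9 after culture. Its log2 change in culture was -0.17 against P0 (adjusted p = 0.784). Slc7a1, the cationic amino acid transporter CAT1, read 9.1 and 4.0, 26.9 and 13.6, and 23.6 and 25.6 on one probe set, a log2 change of 1.20 in culture (adjusted p = 0.098), while another gave -0.63, so its direction depends on the probe set. Slc1a3, the glutamate transporter GLAST of glia, read 89.4 and 98.7 at P0, 49.9 and 58.5 at P4, and 94.5 and 61.6 after culture, with a log2 change of -0.72 at P4 (adjusted p = 0.251). Its other tested probe sets gave -0.71 and -0.51. Of the 17 tested amino acid and peptide probe sets, 1 was called higher in culture against P0 and none in the other comparisons, at median changes of -0.26, -0.12 and 0.19.

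The carriers of nucleosides, vitamins and lipids held the transporter with the largest called difference. Slc44a4 belongs to the choline transporter-like family and is known from epithelia as a carrier of thiamine pyrophosphate. It read 42.3 and 7.8 at P0, 83.1 and 49.0 at P4, and 140.9 and 204.5 after culture. The groups did not overlap, but the P0 arrays were far apart and 1 of them read under the control level. Slc44a4 was higher in culture than at P0, by 5.84-fold with that array set to the control level (log2 change 2.67, SE 0.49, limma adjusted p = 0.0141). From P0 to P4 it differed by 1.37 on the log2 scale (adjusted p = 0.255; 0.0261 once the chip batch was a block), 0.86 in batch A and 1.87 in batch B. The value depended on which P0 array was used: the log2 change was 3.52 without P0 replicate 1 and 1.83 without P0 replicate 2, called in both cases. The call ended without cultured replicate 1 (adjusted p = 0.0809) or cultured replicate 2 (0.14).

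The other 11 tested probe sets of that group were not called in any comparison. Slc27a1, a fatty acid transport protein, read 297.2 and 324.9 at P0, 226.9 and 260.5 at P4, and 233.6 and 197.2 after culture, a log2 change of -0.52 in culture (adjusted p = 0.188). Slc5a6, the sodium-dependent multivitamin transporter for biotin and pantothenate, read 140.9 to 168.8 on 5 arrays and 222.2 on cultured replicate 2. The reduced folate carrier Slc19a1 read 129.3 to 154.3 on its brighter probe set, with log2 changes between -0.01 and 0.07.

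The sequences upstream of the 3 genes called higher in culture (Slc3a2 and Slc44a4 against P0, Slc16a3 against P4) are shown to set the called increases side by side. They are the 250 bases before each annotated RefSeq start on the rat assembly GRCr8, read 5′ to 3′ on the strand of the gene. Capitals mark ACGTG or GCGTG on either strand, the core bound by hypoxia-inducible factors, and these overlap nowhere here. The table lists Slc3a2 with 2 starts.
Slc3a2, first start (chr1:215048065-215048314, minus strand): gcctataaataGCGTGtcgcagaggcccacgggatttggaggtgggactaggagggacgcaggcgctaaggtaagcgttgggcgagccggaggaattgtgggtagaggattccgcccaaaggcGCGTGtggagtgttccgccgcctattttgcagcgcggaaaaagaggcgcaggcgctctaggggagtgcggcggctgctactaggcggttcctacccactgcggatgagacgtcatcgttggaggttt
Slc3a2, second start (chr1:215039671-215039920, minus strand): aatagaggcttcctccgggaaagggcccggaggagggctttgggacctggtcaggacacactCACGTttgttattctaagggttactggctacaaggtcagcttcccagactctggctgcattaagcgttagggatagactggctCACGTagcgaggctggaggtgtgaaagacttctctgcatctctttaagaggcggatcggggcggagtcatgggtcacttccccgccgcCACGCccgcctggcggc
Slc44a4 (chr20:3923855-3924104, minus strand): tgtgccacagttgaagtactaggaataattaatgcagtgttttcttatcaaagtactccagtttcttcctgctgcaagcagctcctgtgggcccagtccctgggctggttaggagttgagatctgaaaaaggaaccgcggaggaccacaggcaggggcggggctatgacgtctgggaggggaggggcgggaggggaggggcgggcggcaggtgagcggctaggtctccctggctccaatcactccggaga
Slc16a3 (chr10:106712078-106712327, plus strand): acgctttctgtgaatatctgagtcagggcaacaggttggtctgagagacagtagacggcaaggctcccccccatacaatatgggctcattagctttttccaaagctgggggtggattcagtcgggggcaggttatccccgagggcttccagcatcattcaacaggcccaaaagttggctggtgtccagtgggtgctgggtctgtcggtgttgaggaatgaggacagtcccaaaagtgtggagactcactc
The core occurred 2 and 3 times before the starts of Slc3a2 and not in the Slc44a4 and Slc16a3 windows. It was present in 36.7% of all 33469 such windows, so a match is common. The amino acid response element core TGATGNAA was in none of the 4 windows on either strand, and in 3.40% of all.

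Among carriers of organic ions, Slc22a7, the organic anion transporter OAT2 of liver and kidney, was lower in culture. It read 190.8 and 189.1 at P0, 118.7 and 108.2 at P4, and 103.8 and 83.4 after culture, and the groups did not overlap. Slc22a7 fell 2.04-fold in culture against P0 (log2 change -0.97, SE 0.22, limma adjusted p = 0.0315), and at P4 its log2 change was -0.71 (adjusted p = 0.172). A second probe set made from the same sequence read only 9.9 to 21.8, around the control level, and gave no such difference, so the Slc22a7 value rests on 1 of a pair that disagree. The call also ended without any of the P0 or cultured arrays (adjusted p = 0.0839 to 0.181).

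Slc22a13, a urate and nicotinate carrier, read 46.1 and 51.8 at P0, 23.9 and 15.8 at P4, and 26.4 and 39.2 after culture. The P0 arrays were highest, and the P4 value differed from theirs by -1.05 on the log2 scale (adjusted p = 0.141; block 0.0484). The carnitine transporter Slc22a5 read 117.5 to 174.6 with no call, and Slc22a18, whose substrate is not settled, 26.3 to 44.0. Slc13a3, a dicarboxylate carrier too dim to be tested, was at 1.2 to 4.6 on 5 arrays and at 40.2 on cultured replicate 1. The 6 kidney tubule markers summed to 196.6 and 241.3 at P0, 188.4 and 212.0 at P4, and 254.6 and 317.2 after culture, with no call among the 5 tested. Kap, the kidney androgen-regulated protein, was too dim to be tested, at 0.9 to 1.6 on the P0 and P4 arrays and 66.4 and 103.3 after culture. The rise of the kidney sum in culture lay in Kap, and the 5 tested markers had a median log2 change of -0.05 against P0. The 5 liver markers summed to 118.3 to 192.5 over the arrays with no call among the 4 tested, and Alb and Apoa2 were at or under the control level in each group. The part of either list in the organic ion values was not tested. Only 7 of the 20 organic ion probe sets could be tested, and 1 was called.

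None of the 36 tested probe sets of ion carriers was called in any comparison. Their median changes were -0.06 at P4 and -0.24 in culture against P0, and 27 of 36 were below 0 in culture, as were 80 of the 127 tested members and 57.9% of all tested probe sets. Slc41a2, a magnesium transporter, read 26.7 and 16.2 at P0, 58.5 and 42.3 at P4, and 39.4 and 56.7 after culture. All 4 later values exceeded both P0 values, at log2 changes of 1.00 at P4 (adjusted p = 0.167, or 0.0439 with the block) and 0.94 in culture (adjusted p = 0.111). Slc26a1, a sulfate and oxalate exchanger, read 68.1 and 36.4, 28.7 and 27.0, and 26.4 and 9.1, a log2 change of -1.27 in culture (adjusted p = 0.1), and Slc30a2, a zinc transporter of vesicles, 39.3 and 56.1, 24.9 and 38.4, and 17.1 and 23.3, one of -0.98 (adjusted p = 0.101). Slc4a4, the sodium-bicarbonate cotransporter, read 73.9, 23.4, 5.3, 12.4, 2.5 and 49.5 from P0 replicate 1 to cultured replicate 2. It had the lowest log2 change of any tested member at P4, -1.64, but its replicates were too far apart for a call (adjusted p = 0.385).

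Neither iron carrier had a call. Slc40a1, ferroportin, which exports iron, read 74.3 to 108.5 on its pair of probe sets, and Slc11a2, the importer DMT1, 193.8 to 277.0 on its brightest. Slc4a7, a sodium-bicarbonate cotransporter, read 167.8 and 188.6 at P0 and 188.4 to 263.1 on the other 4 arrays. Slc4a1, the band 3 anion exchanger of red cells, read 85.0 and 90.8 at P0, 87.4 and 101.5 at P4, and 76.6 and 76.2 after culture on its brightest probe set, at log2 changes of 0.09 and -0.18 against P0. The summed erythroid markers, at P0 nearly all the globin Hbb, went from 3896.3 and 4009.1 at P0 to 124.5 and 103.0 in culture. Alas2, another of them, went from 119.7 and 156.2 to 73.7 and 68.9, which was not called. The part of these markers in the Slc4a1 value was not tested.

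The carriers of neurotransmitters, other amines and osmolytes had no call among 16 tested probe sets. Slc6a20a, a proline and imino acid transporter of epithelia, read 40.6 and 25.3 at P0, 69.5 and 72.7 at P4, and 61.2 and 82.4 after culture. All later values lay above both P0 values, with log2 changes of 0.98 at P4 (adjusted p = 0.14, or 0.0448 with the block) and 0.98 in culture (adjusted p = 0.0729). Slc6a5, the neuronal glycine transporter GlyT2, read 17.7 and 30.2, 28.9 and 14.1, and 47.2 and 67.2, a log2 change of 1.18 against P4 (adjusted p = 0.133). Slc6a9, the glycine transporter GlyT1 that oocytes use to regulate volume, read 71.7 and 162.3 at P0, 126.5 and 204.8 at P4, and 129.4 and 157.9 after culture, with groups that overlapped. The dopamine transporter Slc6a3 had a log2 change of -0.61 in culture against P0 on its brighter probe set (adjusted p = 0.273), with values of 53.1 and 45.3 against 24.6 and 35.3. The serotonin transporter Slc6a4 read 121.4 to 167.6 on its brighter probe set in all groups. The 6 neural markers measured summed to 235.3 and 237.6 at P0 and to 156.8 to 167.5 on the other arrays, Nefm at or under the control level in each group. Their part in these values was not tested.

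Of the mitochondrial carriers, the group above the control level throughout, none of 16 tested probe sets was called without a block. Slc25a5, the adenine nucleotide translocase ANT2 of dividing cells, read 817.0 and 724.2 at P0, 1401.7 and 1103.8 at P4, and 1136.9 and 1270.4 after culture. All 4 later values exceeded both P0 values (log2 changes 0.69 at P4, adjusted p = 0.125, and 0.64 in culture, adjusted p = 0.083). Its paralog Slc25a4, ANT1 of heart and muscle, read 1070.3 to 1248.9 on all 6 arrays, at log2 changes of -0.05 and -0.19. Slc25a3, the phosphate carrier, read 1134.2 to 1431.5 with no order among the groups.

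Slc25a1, which exports citrate for fatty acid and sterol synthesis, read 282.2 and 356.7 at P0, 440.0 and 624.9 at P4, and 518.0 and 511.1 after culture, again with every later value above P0 (log2 change 0.71 at P4, adjusted p = 0.189). Slc25a30, a carrier related to the uncoupling proteins, was high at P4 alone: 135.0 and 121.1 at P0, 309.7 and 193.8 at P4, and 152.2 and 129.8 after culture, at a log2 change of 0.90 from P0 to P4 (adjusted p = 0.154) and of -0.77 from P4 to culture (adjusted p = 0.189). The urea transporters Slc14a2 (140.8 to 220.8) and Slc14a1 (87.9 to 124.2) had no call on the brighter probe set of each, with log2 changes between -0.38 and -0.02.

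Because P0 and P4 arrays of one replicate number share a chip ID batch, the comparison was also fitted with the batch as a block. This fit used the P0 and P4 arrays alone and left fewer residual degrees of freedom than the main fit. Its p-values therefore rest more on the variance shared across probe sets. With the block 9 of 127 solute carrier probe sets were called, 7.09% against 5.13% of all tested probe sets: 6 higher and 3 lower at P4. Higher at P4 were Slc25a30 (adjusted p = 0.0299), Slc25a5 (0.0358), Slc25a1 (0.0399), Slc44a4 (0.0261), Slc41a2 (0.0439) and Slc6a20a (0.0448). Lower were Slc2a5 (0.00294), Slc5a1 (0.031) and Slc22a13 (0.0484). Among these, 3 of the 6 higher were mitochondrial carriers and 2 of the 3 lower were sugar carriers. Those groups held 16 and 15 of the 127 tested probe sets, and their median log2 changes from P0 to P4 were only 0.02 and -0.04. Over all tested members 77 of 127, or 60.6%, had the same sign in both batches, against 64.8% of all tested probe sets.

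**Figure D4:**
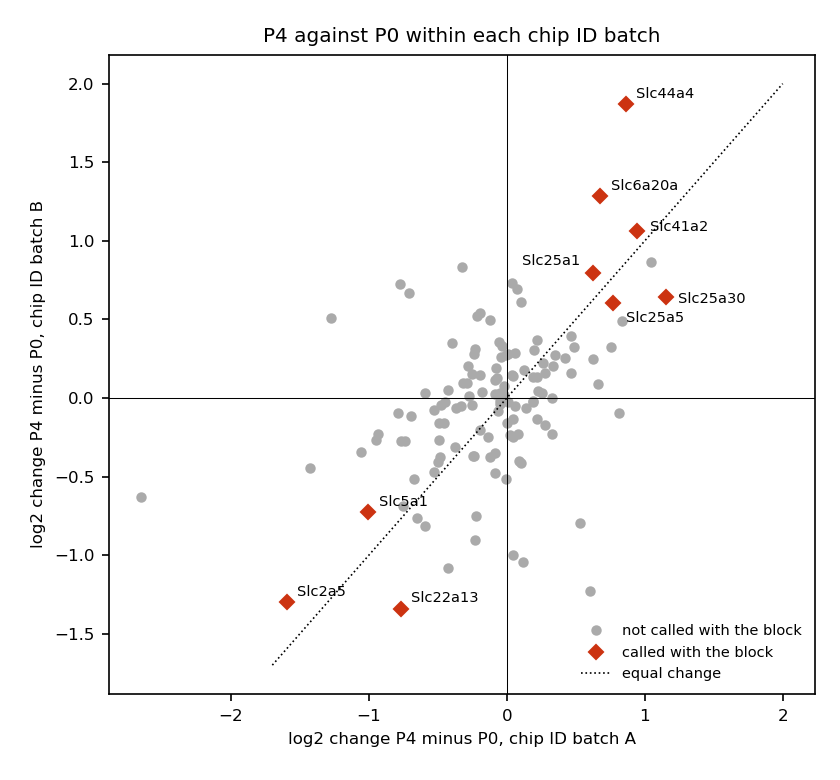
Each point is a tested solute carrier probe set, placed by its log2 change from P0 to P4 in chip ID batch A (x axis) and in batch B (y axis), with 1 array of each age per batch. Diamonds are the 9 probe sets called with the batch as a block, a call drawn from these same changes. Of all 127 points, 77 lie on the same side of 0 in both.

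Several probe sets per gene gave a check within the arrays. Of the 120 genes, 43 had more than 1 probe set, up to 5, and for 27 genes more than 1 was tested. All tested probe sets of a gene had the same sign for 18 of the 27 at P4 against P0. The counts were 19 in culture against P0 and 18 in culture against P4. The same share over all genes with several tested probe sets was not computed, so whether this agreement is usual on these arrays cannot be told. Among the called genes with a second tested probe set, Slc2a5 and Slc3a2, the second had the sign of the first.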

How the data were processed

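Total RNA of 6 pools of rat ovaries was hybridized to Affymetrix rat genome arrays, 2 per group, per the labels' protocols. The deposited table holds linear intensity values that the authors had scaled per array: the mean after trimming 2% at each end was 125.2 on every array. The algorithm is not given in the sources used here. P-values of the main fit rest on the spread between arrays of a group, over all 3 groups, and on variance shared across probe sets. Each array held its own RNA pool, and the labels call these pools independent. Arrays of a group also differed in chip ID batch, so this spread holds pool and batch differences together.

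Before taking log2, 7.7 was added to each value as a pseudocount (percentile 20 of the table). The 59 controls and the 2622 probe sets under the 30th percentile of mean log2 were left out. In R 4.3.3, limma 3.58.1 estimated 3 group means from the 6 arrays together (variance trend, two-sided, 3 residual and 6.45 prior degrees of freedom), checked on simulated data. An exact permutation test of 2 arrays against 2 cannot go below 0.33. The number of arrays limits the precision (median SE of a log2 change 0.259).

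Symbols come from the array annotation, 7018 probe sets with 1, 308 with several and 1473 with none; all 181 members matched the RefSeq table of GRCr8, and no symbol changed. Positions other than those of the printed sequences are not used. Replicate arrays correlated at 0.962 to 0.969 across tested probe sets. The replicate number pairs P0 with P4 arrays, which share a chip ID batch per the labels (deviations correlated at 0.33); each cultured array has its own batch.

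Named were all called members, per substrate group up to 3 with the smallest p and 2 of highest mean, those nearest the control level, and called partners; further names were chosen after their values were seen. Members and lists were chosen with earlier results of these data known. Family 52 was added to the substrate groups once the table was read. "At least" folds set arrays under the control level to it; other folds are ratios of geometric means. Alternatives were another pseudocount, filter, normalization or control level, the block, and leaving out each array.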

Additional observations from a re-analysis of the deposited data

How the results depend on the processing

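With the replicate block, the count of called solute carriers between P4 and P0 was 9 in place of 1. Each block fit used only the arrays of the groups compared. Replicate numbers do not pair cultured arrays with the others (deviations correlated at -0.13 and -0.05). That block gave 8 in place of 3 against P0, or 6.3% of the tested members. Against P4 it gave 1, as without it. The shares of all tested probe sets called in these 2 block fits were not computed, so the 8 cannot be read as a result about transporters. Without any filter on dim probe sets the count between cultured and P4 was 0. At an unadjusted limma p under 0.05 it was 15 of 181, with no share of all probe sets computed for comparison. Leaving out 1 array at a time, the counts ran from 0 to 1 for P4 against P0, 0 to 3 for cultured against P0 and 0 to 1 for cultured against P4. With other pseudocounts, quantile normalization and a stricter filter they stayed within 1.5 times.

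The share of members above the control level depended on how the level was set. At the 95th percentile of the control values, 12.4, it was 73.5%, 73.5% and 72.9% for P0, P4 and cultured ovaries. With both arrays required above 20 it was 60.2%, 55.8% and 54.7%, and with both above their own highest control 65.2% at P0, 66.9% at P4 and 60.8% in culture. Counted by gene it was 73.3%, 70.0% and 70.8%. On single arrays it ran from 64.6% to 65.7% at P0, 60.8% to 63.0% at P4 and 57.5% to 65.2% in culture. The order of the groups changed among these. The cause was not tested. Alternatives were run for 31 changes of single probe sets, those called or of smallest p. None of these 31 reversed its sign; of their values under an alternative, 33 lost a call, 9 gained one and 317 did neither. Other changes named in the text were not rerun.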
